A study of Mus musculus with 16 samples.

Results

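The 9 genes examined encode chemokines that draw T cells into tissue, or the receptors that read them: *Cxcl9*, *Cxcl10*, *Cxcr3*, *Ccl5*, *Ccl3*, *Ccl4*, *Xcl1*, *Cxcl16* and *Cxcr6*. They were chosen by name, with earlier results of these data known. All 9 were among the 18929 genes of the expression table and the 12850 genes tested. B16F10 is a mouse melanoma cell line, and each tumor was an abdominal graft (right side) of this 1 line. The hosts were C57BL/6 females aged 7 to 8 weeks. The mice received vehicle, an anti-PD1 monoclonal antibody (mAb), α-ketoglutarate (α-KG) at 100 mg/kg, or α-KG plus the anti-PD1 mAb (the combination), by the intraperitoneal route for 9 to 11 days. Vehicle was corn oil with an IgG isotype control per the study's text, and whether each single-treatment group also received the control of the other agent is not given. RNA of 16 whole tumors was sequenced, 4 independent tumors per group, and each value is in FPKM, a level corrected for transcript length and for the fragments mapped in each tumor.

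Chemokines are small secreted proteins that form gradients and guide leukocytes carrying matching G protein-coupled receptors. CXCL9 and CXCL10 are induced by interferon γ and call CXCR3-bearing effector T cells and NK cells, whereas CCL3, CCL4 and CCL5 are inflammatory CC chemokines that draw T cells and myeloid cells, CCL3 and CCL5 through CCR1 among others. XCL1 is released by CD8 T cells and NK cells and is read by XCR1 on type 1 dendritic cells, and CXCL16 is a membrane-tethered ligand of CXCR6, a receptor of tissue-resident and effector T cells.

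The ligands fall into the CXC, CC and C classes by the spacing of the first cysteines of the mature protein, and the coding stretch around them shows this best. The cysteine codons are in capitals, each stretch is given 5′ to 3′ on the coding strand and lies within 1 exon of the GENCODE annotation (build GRCm38), and the CXC ligands come first, then the CC ligands, then XCL1 with a lone cysteine at this place.
Cxcl9: aatgcacgaTGCtccTGCatcagcacc
Cxcl10: acggtccgcTGCaacTGCatccatatc
Cxcl16: gctggaagtTGTtctTGTgatcgtacc
Ccl4: cccacttccTGCTGTttctcttac
Ccl5: accactcccTGCTGCtttgcctac
Xcl1: gagagtagcTGTgtgaactta

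These stretches lie at chr5:92326833-92326859 (*Cxcl9*), chr5:92348172-92348198 (*Cxcl10*), chr11:70459118-70459144 (*Cxcl16*), chr11:83529233-83529256 (*Ccl5*) and chr1:164932966-164932986 (*Xcl1*) on the minus strand, and at chr11:83663473-83663496 (*Ccl4*) on the plus strand. *Cxcl9* and *Cxcl10* are neighbors on chromosome 5, 18.6 kb apart. *Ccl3* and *Ccl4* lie 13.2 kb apart on chromosome 11 on opposite strands, with *Ccl5* 117.3 kb from *Ccl3*. Of the receptor genes, *Cxcr3* lies at chrX:101731535-101734269 on the minus strand and *Cxcr6* at chr9:123806475-123811760 on the plus strand, 40.6 kb from *Xcr1*. RefSeq's longest model of *Ccl4* reaches over *Ccl3*, and whether fragments were counted by strand is not stated, so fragments of these 2 genes may not be fully separated.

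A RefSeq promoter sequence (build GRCm38.p6) was matched for 6 of the 9 genes, all but *Ccl4*, *Ccl5* and *Cxcl16*. The 250 bases before each start were searched on both strands for an interferon-stimulated response element (ISRE: GAAA, any 2 bases, GAAA, present in 2.98% of 32851 promoters) and for a nuclear factor κB site (GGG, any 2 bases, TTTCC, in 1.41%). One match was found, an ISRE at positions -213 to -204 from the start of *Cxcl10*. The 60 bases around it, chr5:92349068-92349127 on the minus strand, are shown because *Cxcl10* is the member with an interferon element in this window, given in capitals.
Cxcl10 promoter: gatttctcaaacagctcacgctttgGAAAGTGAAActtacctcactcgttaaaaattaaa

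The 7 melanocyte markers (*Pmel*, *Mlana*, *Tyr*, *Tyrp1*, *Dct*, *Mitf*, *Sox10*) had a summed level of 7845 to 10572 FPKM in every tumor. Other cell types differed by group. The mean log2(FPKM + 1) of 8 markers of all leukocytes was 3.78 in vehicle tumors, 5.11 with anti-PD1, 6.06 with α-KG and 6.06 with the combination, and the 6 neutrophil markers summed to 1018 to 2656 FPKM in α-KG tumors against at most 108 FPKM elsewhere. The 9 T-cell markers in the table summed to 3.14 to 11.5, 9.95 to 32.4, 8.50 to 42.5 and 25.8 to 217 FPKM in the same order of groups, with the markers *Trac*, *Trbc1* and *Trbc2* not analysed here. The mean log2(FPKM + 1) of the CD8 T-cell markers was 0.81, 2.20, 1.55 and 4.12, and that of NK cells 0.14, 0.77, 0.45 and 2.08. On this scale macrophages had 3.71, 5.14, 5.18 and 5.83, type 1 dendritic cells 1.28, 1.56, 1.55 and 2.20, and B cells 0.82, 0.83, 1.27 and 0.86. *Cadm1* (29.09 to 61.70 FPKM) was far above the other dendritic-cell markers in every tumor. The B-cell mean of α-KG tumors ran from 0.73 to 2.30 by tumor, the highest in α-KG tumor 2. Red-cell markers were lowest in combination tumors (10891 to 11752 FPKM, against at least 23319 elsewhere). Skeletal muscle markers had their highest mean in vehicle tumors (43.2 to 573 FPKM, the highest in vehicle tumor 4), which overlapped with the combination tumors (1.17 to 57.2 FPKM). With the single treatments they summed to at most 2.28 FPKM. The part of these cells in the results below was not tested, and in whole tumors fewer cells of a type and less RNA per cell cannot be told apart.

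**Figure D1:**
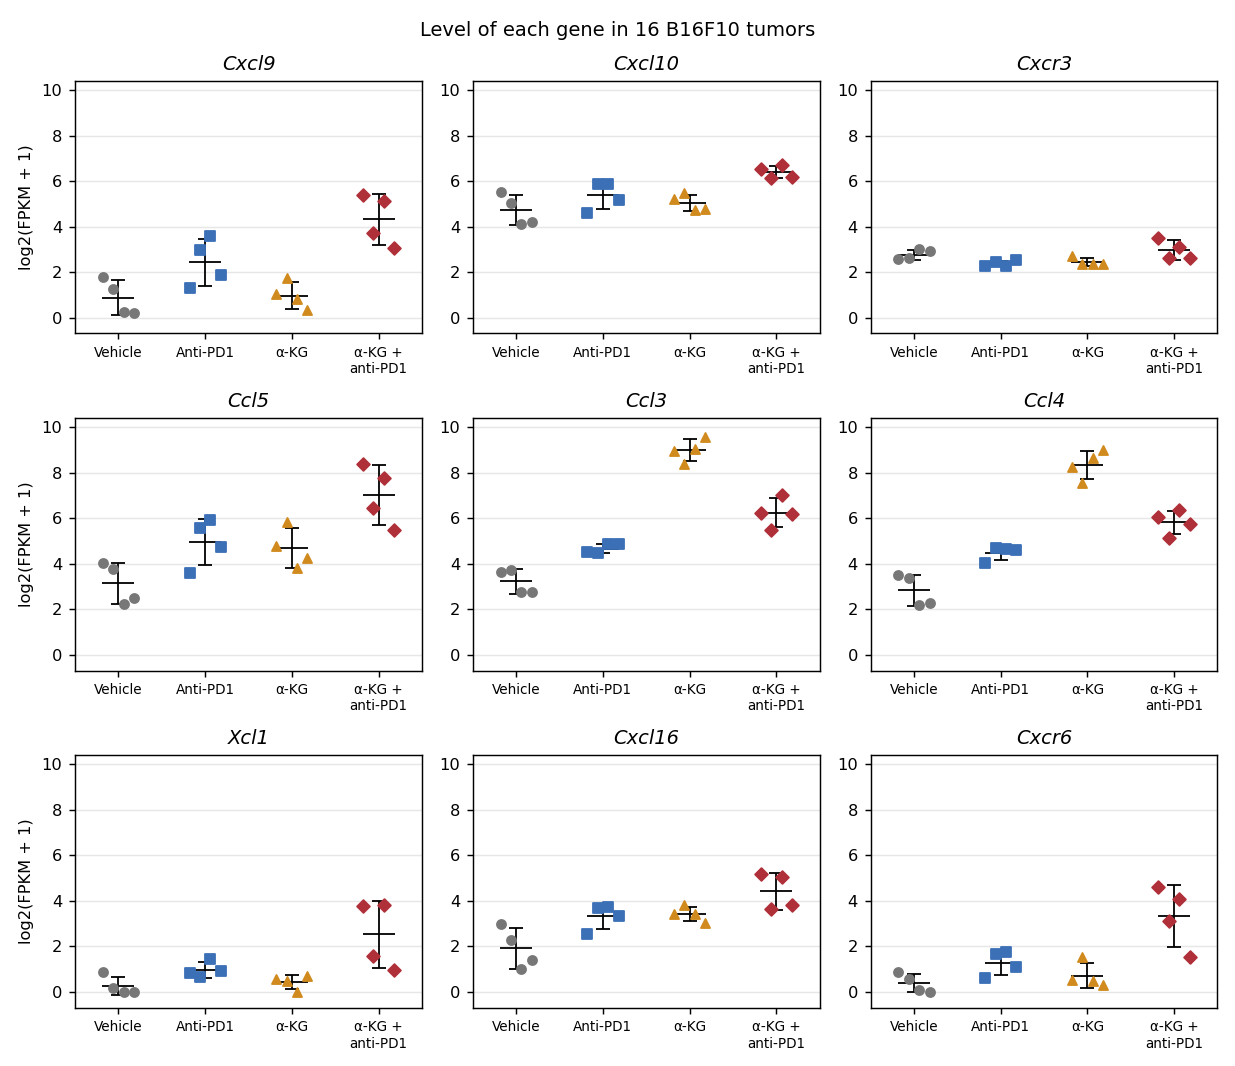
Level of each of the 9 genes as log2(FPKM + 1) in 16 tumors, 4 per group. Points are tumors 1 to 4 from left to right, the wide dash is the group mean and the bar its SD. *Ccl3* and *Ccl4* have their highest mean in α-KG tumors, and the other 7 genes have it in combination tumors.

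The CXCR3 ligands were highest after the combined treatment. *Cxcl9*, a ligand made mainly by macrophages and dendritic cells under interferon γ, was at 2.44, 1.41, 0.19 and 0.14 FPKM in vehicle tumors, 1.44, 6.86, 10.90 and 2.69 with anti-PD1, 1.02, 2.32, 0.75 and 0.24 with α-KG and 40.87, 12.12, 33.67 and 7.30 with the combination. Every combination tumor lay above every vehicle and α-KG tumor, and combination tumor 4 lay below anti-PD1 tumor 3. The combination mean (23.5 ± 16.3 FPKM, SD, n = 4) was 22.5-fold that of vehicle (1.05 ± 1.10). With 1 tumor left out, the ratio was from 16.9-fold (without combination tumor 1) to 40.5-fold (without vehicle tumor 1). *Cxcl9* rose over vehicle by 3.44 ± 0.57 in log2(FPKM + 1) (SE, adjusted p = 0.000534, limma with Benjamini-Hochberg adjustment over 12850 genes). On the same scale it rose by 1.89 over anti-PD1 (adjusted p = 0.038, limma) and 3.35 over α-KG (adjusted p = 0.000847). Anti-PD1 alone gave 1.56 over vehicle (adjusted p = 0.193) and α-KG alone 0.09 (adjusted p = 0.935), and neither passed.

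*Cxcl10*, a second CXCR3 ligand that many cell types release in response to interferons, was far more abundant at baseline. Its levels were 44.38, 31.55, 16.45 and 17.57 FPKM in vehicle tumors, 23.03, 58.40, 57.85 and 35.37 with anti-PD1, 36.43, 43.42, 25.88 and 26.58 with α-KG and 90.47, 70.24, 103.91 and 71.66 with the combination. All combination tumors were above all other tumors, while the other 3 groups overlapped. The rise over vehicle was 1.67 ± 0.32 in log2(FPKM + 1) (SE, adjusted p = 0.00104, limma), over anti-PD1 1.01 (adjusted p = 0.0447) and over α-KG 1.33 (adjusted p = 0.00501). FPKM is scaled to length, so the levels of both ligands may be set side by side: *Cxcl9* minus *Cxcl10* in log2(FPKM + 1) averaged -3.84 in vehicle tumors (-4.03 to -3.72 by tumor) and -2.07 in combination tumors (-3.13 to -1.13). The difference between these means had an exact two-sided permutation p of 0.0286, the smallest that 4 tumors against 4 allow. The adjusted p of this test over the 30 differences compared was 0.078, so it did not pass. At the smallest p, a difference passes only if most of the 30 reach it, so the adjusted test cannot decide on a single difference.

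*Cxcr3*, the receptor of both ligands, had a different pattern. It was at 4.87, 5.11, 6.96 and 6.57 FPKM in vehicle tumors, 3.86, 4.49, 3.86 and 4.72 with anti-PD1, 5.60, 4.15, 4.06 and 4.08 with α-KG and 10.39, 5.10, 7.56 and 5.19 with the combination. The vehicle and combination tumors overlapped, and every anti-PD1 tumor lay below every vehicle tumor (-0.39, adjusted p = 0.289, limma, not passing). The 9 T-cell markers summed to 3.14 to 11.5 FPKM over the vehicle tumors, and which cells carried *Cxcr3* was not tested. The combination minus vehicle was 0.19 (95% confidence interval -0.18 to 0.57, adjusted p = 0.391, limma) beside a median of 0.15 over all genes tested. It turned to -0.19 after quantile normalization and to -0.12 after centering each tumor on its median. *Cxcr3* rose over anti-PD1 by 0.58 (adjusted p = 0.0407) and over α-KG by 0.52 (adjusted p = 0.0308), and both calls were lost under those scalings (adjusted p = 0.276 and 0.156 against anti-PD1, 0.419 and 0.279 against α-KG).

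The inflammatory CC chemokines split. *Ccl5* (RANTES), which activated T cells and NK cells store and release and which macrophages also make, was at 15.42, 12.57, 3.72 and 4.60 FPKM in vehicle tumors, 11.21, 46.74, 58.96 and 26.02 with anti-PD1, 26.56, 56.60, 12.91 and 18.16 with α-KG and 337.86, 87.07, 213.92 and 43.25 with the combination. The combination tumors all lay above the vehicle tumors, and combination tumor 4 lay within the range of both single treatments. *Ccl5* averaged 171 ± 133 FPKM after the combination (SD, n = 4), 18.8-fold the vehicle mean of 9.08 ± 5.81, and rose by 3.89 ± 0.65 in log2(FPKM + 1) (SE, adjusted p = 0.000564, limma), by 2.06 over anti-PD1 (adjusted p = 0.0446) and by 2.35 over α-KG (adjusted p = 0.0111). In combination tumors it ranked 418 of 18929 genes by mean FPKM, against 6267 in vehicle tumors. The single treatments gave 1.83 (anti-PD1, adjusted p = 0.18) and 1.54 (α-KG, adjusted p = 0.121) over vehicle, without passing.

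*Ccl3* (macrophage inflammatory protein-1α) and *Ccl4* (macrophage inflammatory protein-1β), which myeloid cells and activated lymphocytes make, peaked in α-KG tumors instead. *Ccl3* was at 11.38, 12.30, 5.82 and 5.73 FPKM in vehicle tumors, 21.83, 20.87, 27.84 and 27.74 with anti-PD1, 501.32, 329.82, 521.69 and 759.17 with α-KG and 74.80, 44.20, 129.99 and 72.80 with the combination. No 2 groups overlapped, in the rising order vehicle, anti-PD1, combination and α-KG. α-KG raised *Ccl3* 60.0-fold over vehicle (528 ± 177 against 8.81 ± 3.52 FPKM, SD, n = 4), 5.76 ± 0.31 in log2(FPKM + 1) (SE, adjusted p = 2.87e-08, limma), and the combination raised it by 3.02 (adjusted p = 0.000417). Against α-KG alone, *Ccl3* in the combination fell by 2.74 (adjusted p = 4.53e-05).

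*Ccl4* had the same order, with 10.31, 9.24, 3.60 and 3.85 FPKM in vehicle tumors, 15.27, 24.52, 24.43 and 23.07 with anti-PD1, 308.62, 183.67, 395.52 and 505.27 with α-KG and 64.56, 33.97, 80.52 and 53.23 with the combination. Here too no groups overlapped. The log2(FPKM + 1) difference from vehicle was 5.52 ± 0.35 for α-KG (SE, adjusted p = 8.17e-08, limma) and 2.98 for the combination (adjusted p = 0.000417), and the combination fell by 2.54 against α-KG (adjusted p = 0.000223). Anti-PD1 alone raised *Ccl3* by 1.44 (adjusted p = 0.0463) and *Ccl4* by 1.66 (adjusted p = 0.0441). *Ccl3* and *Ccl4* kept their calls in α-KG against vehicle, in α-KG against anti-PD1 and in the combination against α-KG under all 27 alternatives run. The neutrophil markers separated the same group: their mean log2(FPKM + 1) was 5.63 to 6.61 in α-KG tumors and at most 3.41 in all others, and their part in the *Ccl3* and *Ccl4* levels was not tested.

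**Figure D2:**
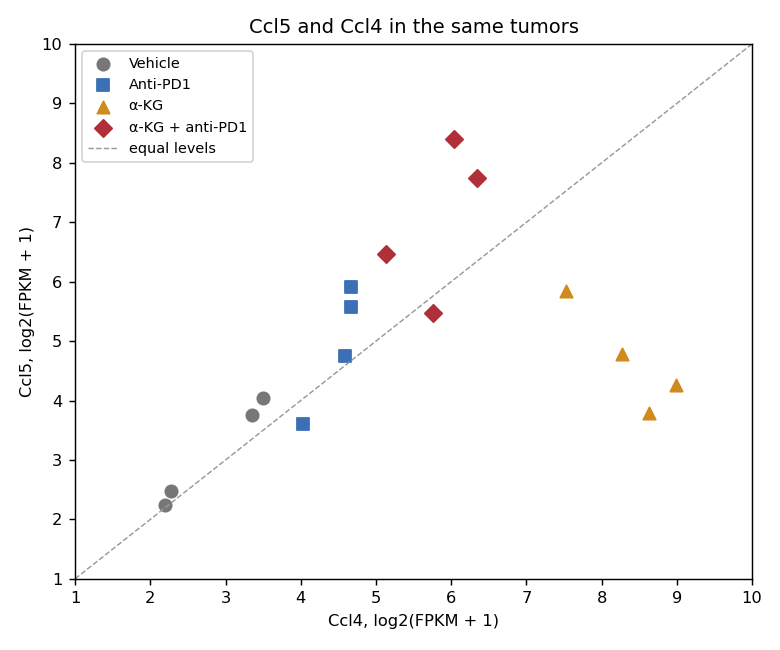
*Ccl5* against *Ccl4* in the same 16 tumors, both as log2(FPKM + 1), with a dashed line where both are equal. *Ccl5* minus *Ccl4* is -4.83 to -1.68 in the α-KG tumors, which lie below the line, and 0.04 to 0.54 in the vehicle tumors.

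Within a tumor, *Ccl5* was on average 0.30 log2 units above *Ccl4* in vehicle, 0.47 above it in anti-PD1 and 1.20 above it in combination tumors, but lay at -3.68 relative to it in α-KG tumors. The α-KG group did not overlap with any other group in this difference, at an exact permutation p of 0.0286, the smallest this design gives. The adjusted p of this test over the 30 differences was 0.078, which did not pass, under the limit given above for a single difference. As a share of the summed FPKM of the 9 genes, *Ccl3* and *Ccl4* together made up a median of 24.4% in vehicle tumors, 32.5% with anti-PD1, 92.7% with α-KG and 31.0% with the combination. *Ccl5* held a median of 13.6%, 23.2%, 2.18% and 32.9%, and *Cxcl9* with *Cxcl10* 44.1%, 31.9%, 3.48% and 25.6%. The sum itself was largest in α-KG tumors, with a median of 930.5 FPKM against 58.3 (vehicle), 154 (anti-PD1) and 452 (combination).

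**Figure D3:**
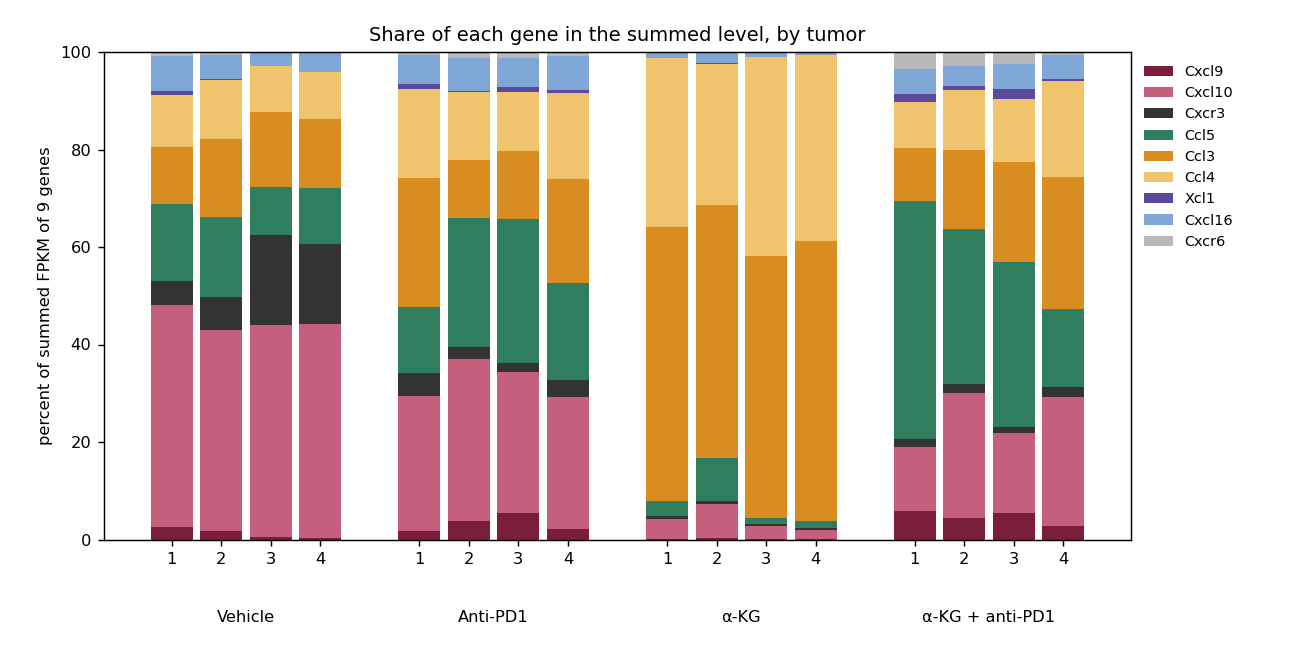
Share of each gene, in percent, in the summed FPKM of the 9 genes, 1 bar per tumor. *Ccl3* and *Ccl4* fill 80.8% to 95.7% of the bars of the α-KG tumors, and *Cxcl10* is the largest single part in the vehicle tumors.

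*Xcl1* (lymphotactin) was the least abundant ligand. It was at 0.82, 0.13, 0 and 0 FPKM in vehicle tumors, 0.80, 0.56, 1.75 and 0.89 with anti-PD1, 0.50, 0.38, 0 and 0.64 with α-KG and 12.56, 2.00, 13.19 and 0.92 with the combination. The combined treatment separated from vehicle and from α-KG, but combination tumor 4 lay inside the anti-PD1 range and combination tumors 1 and 3 carried most of the group mean of 7.17 FPKM. The differences on the log2(FPKM + 1) scale were 2.27 ± 0.51 from vehicle (SE, adjusted p = 0.00262, limma), 1.56 from anti-PD1 (adjusted p = 0.0483) and 2.09 from α-KG (adjusted p = 0.00544). With a pseudocount of 1, changes of so low a gene are understated. Its receptor *Xcr1* stayed low, with means of 0.495, 0.800, 0.988 and 1.78 FPKM in the same order of groups, and rose over vehicle by 0.84 in combination tumors (adjusted p = 0.0118).

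*Cxcl16*, a ligand that macrophages and dendritic cells carry on their surface and shed, was at 7.02, 3.78, 1.01 and 1.63 FPKM in vehicle tumors, 4.90, 11.83, 12.23 and 8.98 with anti-PD1, 9.70, 12.95, 9.62 and 7.22 with α-KG and 35.25, 11.35, 32.20 and 13.11 with the combination. α-KG and combination tumors lay above every vehicle tumor, and the combination tumors overlapped with either single treatment. It rose by 2.50 ± 0.43 in the combination (SE, adjusted p = 0.000593, limma) and by 1.50 ± 0.43 in α-KG (adjusted p = 0.0257) on the log2(FPKM + 1) scale. The call in α-KG tumors was lost without vehicle tumor 3 or 4 or α-KG tumor 1, 2 or 3 (adjusted p from 0.0512 to 0.0933). The combined treatment gave 1.10 over anti-PD1 (95% confidence interval 0.19 to 2.00, adjusted p = 0.0855) and 1.00 over α-KG (0.10 to 1.91, adjusted p = 0.0746), and neither passed.

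*Cxcr6*, the receptor of CXCL16, was near 0 in vehicle tumors (0.83, 0.50, 0.07 and 0 FPKM). It was at 0.53, 2.20, 2.34 and 1.13 FPKM with anti-PD1, 0.43, 1.85, 0.39 and 0.24 with α-KG and 23.57, 7.74, 15.88 and 1.88 with the combination. The combination mean (12.3 ± 9.47 FPKM, SD, n = 4) was 35.1-fold that of vehicle. With 1 tumor left out, the ratio was from 24.3-fold (without combination tumor 1) to 64.6-fold (without vehicle tumor 1). The combination tumors lay above every vehicle and α-KG tumor, but combination tumor 4 lay within the anti-PD1 range. *Cxcr6* rose by 2.95 ± 0.50 over vehicle (SE, adjusted p = 0.000601, limma), 2.06 over anti-PD1 (adjusted p = 0.0205) and 2.63 over α-KG (adjusted p = 0.00157) on the log2(FPKM + 1) scale. *Cxcr6* minus *Cxcr3* in log2(FPKM + 1) was -2.38 in vehicle and 0.38 in combination tumors (exact permutation p = 0.0286, adjusted p = 0.078). It did not pass either, under the same limit.

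**Figure D4:**
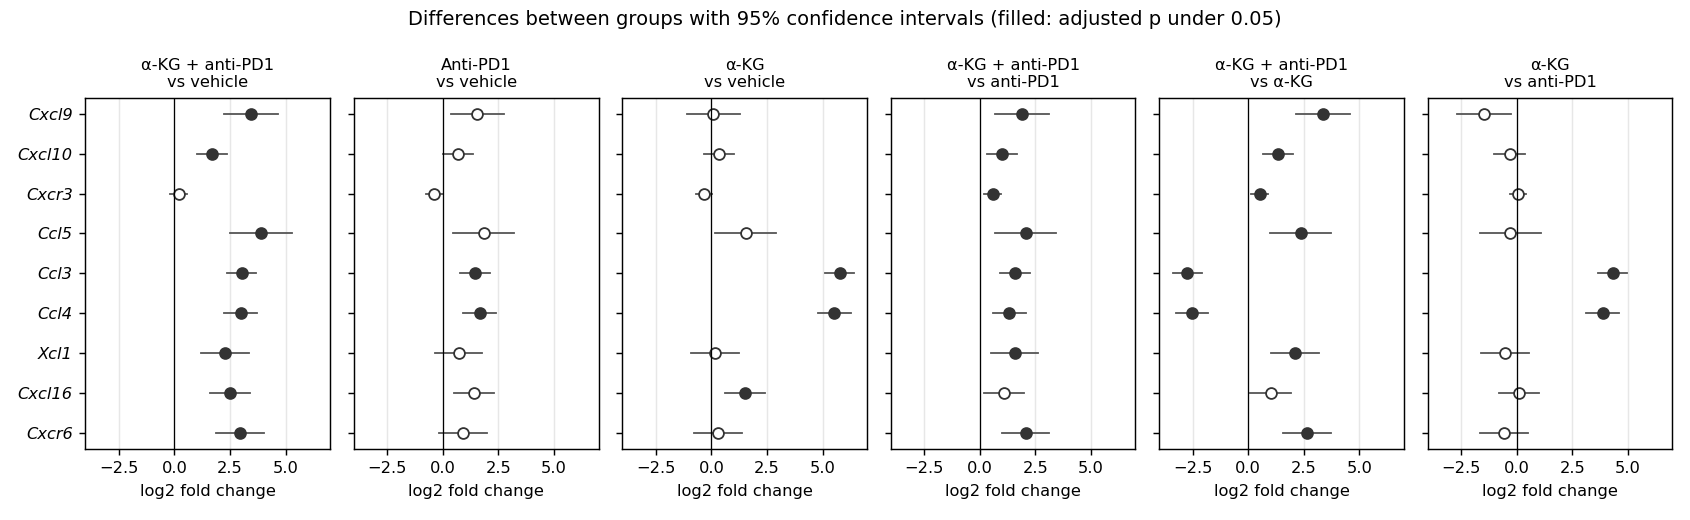
Difference between 2 groups in log2(FPKM + 1) for each gene and comparison, with its 95% confidence interval from limma. Filled points have an adjusted p under 0.05. *Ccl3* and *Ccl4* are the genes to the left of 0 among the filled points, where the combination is set against α-KG.

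Set against vehicle, the combination raised 8 of the 9 genes, all but *Cxcr3*, where 34.9% of all genes tested were called higher. The same 8 lay above all vehicle tumors, where 28.2% of all genes did. The median difference of the 9 was 2.95 beside 0.15 over all genes. The genes were chosen with earlier results of these data known. The values beside all genes, here and below, therefore describe them and are no independent test. The count stayed at 8 with any 1 tumor left out and under every scaling, but the background moved: 4479 genes were higher and 1348 lower as deposited, 2241 and 3994 after quantile normalization, 2197 and 4803 after centering, and 6310 and 251 after rescaling to the same sum. With the leukocyte marker mean as a covariate none of the 9 passed in limma (2 at an unadjusted p under 0.05), with fitted differences of -0.37 (*Xcl1*) to 1.72 (*Ccl3*), and no other gene of the 12850 passed either.

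The comparisons of the single treatments share these vehicle tumors. Anti-PD1 raised *Ccl3* and *Ccl4*, 2 of 9, where 0.467% of all genes were called higher. Both calls were lost without vehicle tumor 3 or 4, anti-PD1 tumor 2, 3 or 4, or α-KG tumor 1, 3 or 4, and that of *Ccl3* without anti-PD1 tumor 1, while *Cxcl16* joined them without vehicle tumor 1 (adjusted p = 0.0214). α-KG raised *Ccl3*, *Ccl4* and *Cxcl16*, 3 of 9, where 8.4% of all genes were called higher. These 3 also lay above all vehicle tumors, where 10.1% of all genes did.

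Adding α-KG to anti-PD1 raised 8 of the 9 genes, all but *Cxcl16*, where 14.2% of all genes were called higher. Their adjusted p lay between 0.0105 (*Ccl3*) and 0.0483 (*Xcl1*), and 4 of them (*Cxcl10*, *Cxcr3*, *Ccl3*, *Ccl4*) lay above all anti-PD1 tumors, where 13.6% of all genes did. Only *Ccl3* was called without anti-PD1 tumor 1 or 4 or without combination tumor 1 or 3, and 5 genes were called without vehicle tumor 2 or α-KG tumor 1 or 4. None passed when these 2 groups were fitted alone in limma, where all 9 had an unadjusted p under 0.05. None passed with the leukocyte covariate, where 4 had.

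Adding anti-PD1 to α-KG raised 6 genes (*Cxcl9*, *Cxcl10*, *Cxcr3*, *Ccl5*, *Xcl1*, *Cxcr6*), where 31.8% of all genes were called higher, and lowered 2 (*Ccl3*, *Ccl4*), where 6.47% were called lower. Of the 6, *Cxcl9*, *Cxcl10*, *Xcl1* and *Cxcr6* lay above all α-KG tumors, where 29.7% of all genes did. Between the single treatments, *Ccl3* was 4.32 higher and *Ccl4* 3.87 higher in log2(FPKM + 1) with α-KG than with anti-PD1 (adjusted p = 4.99e-07 and 2.86e-06, limma), 2 of 9 where 2.8% of all genes were called higher. The interaction, the difference that anti-PD1 made with α-KG minus that without it, was below 0 for *Ccl3* (-4.18, adjusted p = 3.67e-05) and *Ccl4* (-4.19, adjusted p = 0.000111), where 3.13% of all genes were called lower, and above 0 for *Cxcr3* (0.90, adjusted p = 0.0326), where 7.99% were called higher. The *Cxcr3* term missed the threshold after quantile normalization (adjusted p = 0.117) and centering (0.0947). Interaction terms of *Cxcl9* (1.80, adjusted p = 0.147), *Cxcr6* (1.74, 0.118) and *Xcl1* (1.38, 0.208) were above 0 without passing.

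Receptors, scavengers and proteases that act on these ligands were counted as a list of 9, of which 6 passed the filter on low values. The combination raised 5 of these 6 over vehicle (34.9% of all genes), α-KG raised 2 (8.4% of all genes) and anti-PD1 raised 1, *Ccr1* (0.467% of all genes). *Ccr1*, a receptor of CCL3 and CCL5 on myeloid cells, had means of 1.97, 7.09, 26.0 and 7.37 FPKM in the order of groups used above, with every α-KG tumor above all others and the anti-PD1 and combination tumors overlapping. *Ccr1* rose by 3.22 in α-KG over vehicle (adjusted p = 3.55e-06, limma) and fell by 1.71 in the combination against α-KG (adjusted p = 0.00128). *Dpp4*, a peptidase that trims CXCL10, rose by 0.85 and *Adam10*, which sheds CXCL16, by 0.23 in the combination over vehicle (adjusted p = 0.00679 and 0.0407, limma), and *Adam17* gave 0.20 (adjusted p = 0.106). None of the 6 passed between the combination and anti-PD1 in limma, where 2 had an unadjusted p under 0.05. *Ccr3* and *Ackr2* did not reach the filter, and *Cxcl11* was not analysed here.

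The genes upstream of the ligands were counted as a list of 8, all tested. All 8 rose in the combination over vehicle, where 34.9% of all genes were called higher. In α-KG 4 rose (*Tnf*, *Ifngr2*, *Nfkb1*, *Rela*), where 8.4% of all genes did, and in anti-PD1 none passed, where 0.467% of all genes did and 2 of the 8 had an unadjusted p under 0.05 in limma. *Ifng*, the cytokine that induces *Cxcl9* and *Cxcl10*, was at 0.79, 0.26, 0 and 0.11 FPKM in vehicle tumors, 0.26, 1.63, 2.42 and 0.72 with anti-PD1, 0.27, 0.77, 0.18 and 0.06 with α-KG and 11.49, 4.37, 14.40 and 1.37 with the combination. *Ifng* was at most 0.77 FPKM in the α-KG tumors, where *Cxcl9* was at most 2.32 and *Cxcl10* at least 25.88. *Ifng* rose by 2.48 in the combined group over vehicle and by 2.44 over α-KG. Adding α-KG to anti-PD1 raised 4 of the 8 (*Ifng*, *Ifngr1*, *Tnf*, *Irf1*) beside 14.2% of all genes, and adding anti-PD1 to α-KG raised 4 (*Ifng*, *Ifngr1* and *Irf1* among them) beside 31.8% of all genes and lowered *Tnf* beside 6.47%. *Irf1*, a transcription factor of the interferon response, rose by 3.02 over vehicle in combination tumors and gave 0.58 in α-KG tumors without passing. *Tnf*, an inflammatory cytokine, had the order of *Ccl3* in its group means instead, with of 0.400, 1.36, 31.0 and 8.85 FPKM, a rise of 4.38 in α-KG over vehicle and a fall of 1.77 in the combination against α-KG.

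Of 45 other chemokine genes and receptors, 28 were tested. In the combination against vehicle 17 were higher and 2 lower, where 34.9% of all genes were called higher and 10.5% lower. In α-KG against vehicle 17 were higher and 1 lower, where 8.4% of all genes were called higher and 7.53% lower. Anti-PD1 raised 3 of the 28 over vehicle (0.467% of all genes), and α-KG raised 7 over anti-PD1 (2.8% of all genes). Of the genes named from this list, *Ccl17*, *Ccl21a*, *Cxcl12*, *Cxcl13*, *Ccr4* and *Cxcr5* did not reach the filter, and *Ccl19* was not analysed here. *Ccr7*, which guides naive T cells and mature dendritic cells to lymph nodes, averaged 0.753, 1.82, 3.32 and 2.02 FPKM. The monocyte attractants *Ccl2* and *Ccl8* averaged 22.5 and 8.84 FPKM in vehicle and 70.6 and 88.6 in combination tumors, where both rose. *Ccr2*, the receptor of CCL2, rose with them by 2.28. By tumor, *Ccl2* was at 41.84 to 85.29 FPKM with anti-PD1 and 42.49 to 90.55 with α-KG, overlapping with the combination tumors (48.86 to 116.83). *Ccl8* was at 13.35 to 56.75 FPKM with anti-PD1, 10.79 to 43.99 with α-KG and 53.98 to 122.23 with the combination. Adding α-KG to anti-PD1 raised 5 of the 28 and lowered 2, where 14.2% of all genes were called higher and 1.31% lower. Adding anti-PD1 to α-KG raised 6 and lowered 8, where 31.8% of all genes were called higher and 6.47% lower. *Cxcr4*, the receptor of CXCL12, averaged 1.78, 6.26, 17.3 and 12.5 FPKM, and *Ccl22*, a ligand of CCR4 from dendritic cells, 0.575, 1.62, 3.22 and 2.19. The interaction passed below 0 for 13 and above 0 for 1 of the 28, where 3.13% and 7.99% of all genes did. The neutrophil attractants *Cxcl2* and *Cxcl3* (chosen after their values were seen) were among the 13, with means of 705 and 200 FPKM in α-KG tumors and 14.9 and 2.36 in combination tumors. By tumor, *Cxcl2* was at 3.83, 3.42, 3.25 and 49.07 FPKM with the combination, so tumor 4 carried most of that mean. It was at 1.45 to 7.70 FPKM in vehicle tumors and 7.25 to 14.30 with anti-PD1.

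Whether a ligand and its receptor varied together between tumors of the same group was asked of 8 pairs, of which 5 are given here, on deviations of log2(FPKM + 1) from the group means over 16 tumors, with 100000 permutations within groups. *Cxcl16* followed *Cxcr6* (Pearson's r = 0.771, permutation p = 0.00051, adjusted p = 0.00204 over 8 pairs, and Spearman's rho = 0.879, permutation p = 0.00015). Its r was 0.833 when the 2 tumors with the most extreme *Cxcl16* were removed. Both genes had a higher r with some members that are not their partners and a lower r with the rest. *Cxcl16* had r = 0.905 with *Cxcl9*, and *Cxcr6* had r = 0.915 with *Ccl5*, so the relation was not particular to this pair. The part of leukocyte content in these relations was not tested. *Ccl3* followed *Ccr1* (r = 0.866, permutation p = 0.00238, adjusted p = 0.00635; rho = 0.865, permutation p = 0.00196; r = 0.816 without 2 tumors). The CXCR3 ligands did not pass with their receptor: r was 0.287 for *Cxcl9* (permutation p = 0.408, adjusted p = 0.466; rho = 0.171, permutation p = 0.584; r = 0.235 without 2 tumors) and -0.0292 for *Cxcl10* (permutation p = 0.899, adjusted p = 0.899; rho = -0.078, permutation p = 0.761; r = 0.0338 without 2 tumors). For *Xcl1* and *Xcr1*, r was 0.614 (permutation p = 0.15, adjusted p = 0.2; rho = 0.537, permutation p = 0.139; r = 0.403 without 2 tumors).

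**Figure D5:**
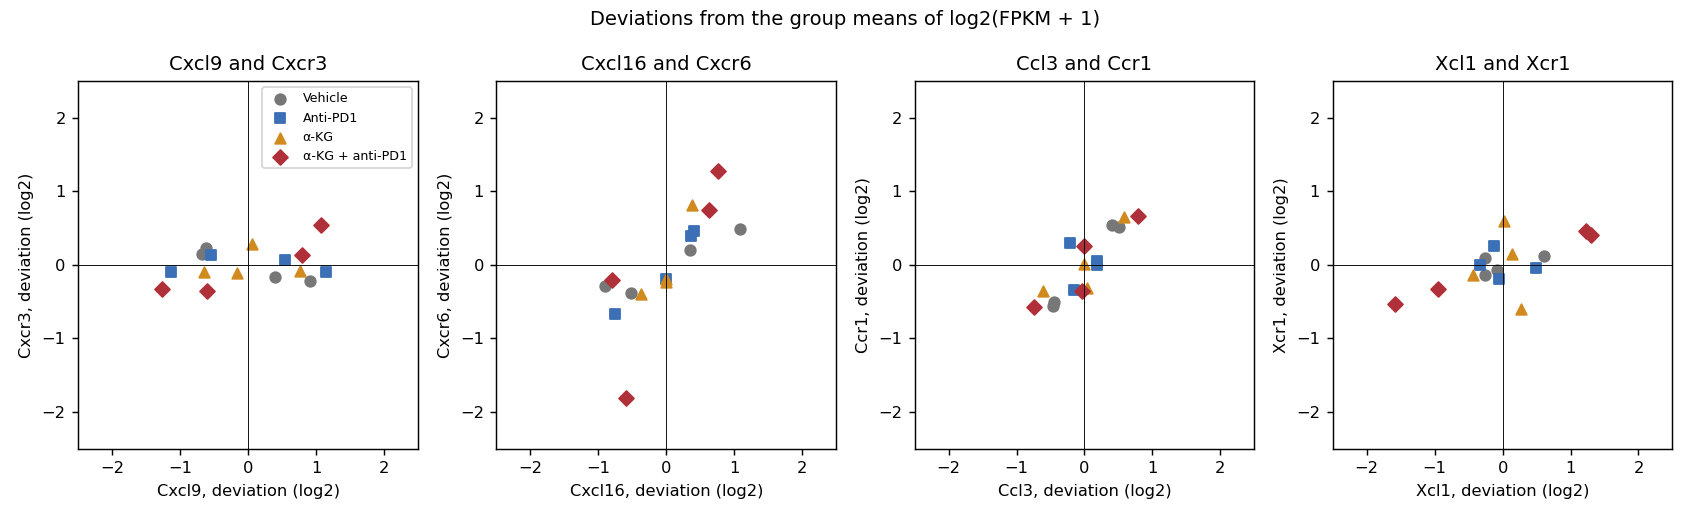
Deviation of a receptor (vertical) against that of its ligand (horizontal) from the group mean, in log2(FPKM + 1), for 4 pairs and 16 tumors. Points lie along a rising line for *Cxcl16* with *Cxcr6* and *Ccl3* with *Ccr1* (r = 0.771 and 0.866), and scatter flat for *Cxcl9* with *Cxcr3* (r = 0.287).

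The tested genes nearest to each member on the same deviations, as a description over 16 tumors whose leukocyte content also varies, are given with r. *Cxcl9* was closest to *Serpina3g*, *Prf1* (perforin) and *Psme1* (r = 0.978 to 0.986), and *Cxcl10* to *Tap1*, *C4b* and *Parp12* (0.966 to 0.967). *Ccl5* was closest to *Il2rb*, *Rgs1* and *Nkg7* (0.964 to 0.974), of which *Il2rb* and *Nkg7* are lymphocyte genes, and *Cxcr6* to *Tox*, *Gzmk* and *Fcho1* (0.976 to 0.977), of which *Tox* and *Gzmk* are known from CD8 T cells. *Ccl3* was closest to *Ccl4*, *Plek* and *Il1rn* (0.871 to 0.917) and *Ccl4* to *Plek*, *Clec4d* and *Tank* (0.927 to 0.972), with *Clec4d* a myeloid lectin. *Cxcl16* was closest to *Ly6e*, *Tbxas1* and *Casp1* (0.955 to 0.962) and *Xcl1* to *Fli1*, *Rtl5* and *Hpcal1* (0.947 to 0.960). *Cxcr3* was closest to *Impa2*, *Pex19* and *Dda1* (0.893 to 0.915), none of which is a T-cell marker of the list used here. Among the members themselves, *Cxcl9* and *Ccl5* were the closest pair (r = 0.954), *Ccl3* and *Ccl4* next (0.917), and r between *Cxcr3* and each of *Cxcl10*, *Ccl4* and *Ccl3* lay between -0.0292 and 0.0189.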

How the data were processed

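RNA of 16 tumors, 4 per group by GEO's treatment label, had been enriched by oligo-dT, converted with dUTP in the second strand and read on a DNBSEQ platform. The authors deposited 1 table of FPKM values with 2 decimals. The submitters' processing notes name HISAT, Bowtie2 and build mm10, without role or order. The FPKM program, the annotation and the use of strand in counting are not given in the sources used here. There are no counts, so depth is unknown, no counting intervals are given. FPKM summed to 514180 to 527812 per tumor in the combination group and to 549740 to 654772 in all other tumors. This difference in scale goes with the group, and its part in the results was not tested.

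Values were taken as log2(FPKM + 1). The 12850 genes that reached 0.5 FPKM in 4 or more tumors were fitted with limma 3.58.1 (R 4.3.3, eBayes with trend, 1 mean per group over 16 tumors). Benjamini-Hochberg adjustment ran over these genes, with a threshold of 0.05, and the p-values measure the spread between tumors. In simulated data, 200 of 12850 genes were changed between the combination and vehicle. Of the changed genes, 98.0% were called, and 7.55% of the calls were unchanged genes. The tumors gave 4479 higher and 1348 lower calls in this comparison, and whether these percentages hold for the tumors was not tested. Permutations used Python 3.11.15 with numpy 2.4.6. The named genes are the 9 members, the receptor and inducer lists, 13 set genes of the other-chemokine list, and the 3 genes nearest to each member. *Cxcl2* and *Cxcl3* were added after their values were seen, and marker genes only check cell content. The members and lists were chosen with earlier results of these data known. Alternatives changed the pseudocount, filter, scaling, variance prior, fit samples, replicate block, leukocyte covariate and single tumors. Gene positions and coding sequence came from GENCODE (GRCm38, the same assembly as mm10) and promoters from RefSeq (GRCm38.p6). Some listed items and the results that need them are not reported here.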

Additional observations from a re-analysis of the deposited data

Results flagged for a closer look

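In 4 of 36 sets of 4 tumors (9 genes in 4 groups), 1 tumor stood apart from the other 3 by Dixon's criterion, which chance alone meets in about 1 of 20. These were *Cxcr3* in α-KG tumor 1 (5.60 FPKM, the other 3 at 4.06 to 4.15), *Ccl4* in anti-PD1 tumor 1 (15.27 FPKM, below the others), *Xcl1* in vehicle tumor 1 (0.82 FPKM, the others at most 0.13) and *Cxcr6* in α-KG tumor 2 (1.85 FPKM, the others at most 0.43). The difference that anti-PD1 made depended on α-KG for 3 genes by limma's interaction term. On the log2(FPKM + 1) scale it was -4.18 for *Ccl3* and -4.19 for *Ccl4*, which anti-PD1 raised over vehicle and which were lower with anti-PD1 added to α-KG. It was 0.90 for *Cxcr3*, a call lost under 2 scalings, without the low-value filter, with the replicate block and in 9 of 16 runs with 1 tumor left out.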

How the results depend on the processing

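Depth is unknown, so values below about 1 FPKM are the least certain. They include *Xcl1* and *Cxcr6* in most vehicle and α-KG tumors, and *Xcl1* in most anti-PD1 tumors and in combination tumor 4 (0.92 FPKM). *Cxcl9* was as low in vehicle tumors 3 and 4 (0.19 and 0.14 FPKM) and α-KG tumors 3 and 4 (0.75 and 0.24). With 4 tumors per group, every exact permutation test is limited to p = 0.0286 or more. Of the fold changes of the 9 members over all comparisons, 587 kept their direction and side of the threshold when a setting other than a single tumor changed, 64 lost a call, 18 gained one and 21 changed sign, 6 of which also lost or gained a call. With 1 tumor left out, 911 kept both, 83 lost a call, 6 gained one and 8 changed sign.

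The number of members called against vehicle for anti-PD1 (2 as reported) was 0 without the low-value filter, after rescaling to the same sum, without the variance trend, with the leukocyte covariate and with the 2 groups fitted alone (5, 5, 6, 3 and 8 members at an unadjusted p under 0.05 in limma), and 0 to 3 with 1 tumor left out. Adding α-KG to anti-PD1 (8 as reported) called 3 with a pseudocount of 0.1, 3 without the filter, 5 after centering on tumor medians, 0 with the covariate or the 2 groups alone, and 1 to 8 with 1 tumor left out. The combination against vehicle (8) called 0 with the covariate, α-KG against anti-PD1 (2) called 8, and the interaction (3) called 9, and 2 to 5 with 1 tumor left out. The cause of these moves was not tested. The replicate block, which treats equal tumor numbers as pairs, gave 0 for anti-PD1 against vehicle, 4 for the combination against anti-PD1 and 2 for the interaction, and left the other counts as they were. Of 24 same-numbered pairs 9 had deviations correlated above 0.1 (-0.642 to 0.411). For 0 of 16 tumors was the best match in every other group the tumor of the same number. Unrelated tumors would seldom meet so strict a rule, so this count cannot tell whether equal numbers mark pairs.

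Signs changed as follows. *Cxcr3* in the combination against vehicle was -0.19 after quantile normalization, -0.12 after centering and -0.057 with the leukocyte covariate. *Cxcl9* in α-KG against vehicle was -0.0565 after quantile normalization and -0.16 to 0.40 with 1 tumor left out. In α-KG against anti-PD1, *Cxcr3* was -0.0139 after rescaling without red-cell genes (an alternative chosen after seeing the data) and -0.0342 to 0.10 with 1 tumor left out, *Cxcl16* -0.16 to 0.23 and *Ccl5* -0.74 to 0.025. With the covariate, *Xcl1* was -0.37 in the combination against vehicle. Against vehicle in anti-PD1, it gave -0.21 (*Cxcl9*), -0.20 (*Cxcl10*), -0.15 (*Ccl5*), -0.82 (*Xcl1*), -0.0253 (*Cxcl16*) and -0.58 (*Cxcr6*). Against vehicle in α-KG, it gave -2.95, -1.15, -1.87, -2.45, -0.96 and -2.21 for the same genes, and it gave -0.0449 for *Cxcr3* and -0.93 for *Cxcl16* in α-KG against anti-PD1 and 1.02 for the *Cxcl16* interaction. With a pseudocount of 0.1, *Cxcl9* minus *Cxcl10* in α-KG against vehicle was 0.0332, *Ccl4* minus *Ccl3* in the combination against vehicle 0.0144, and *Cxcl16* minus *Cxcr6* in anti-PD1 against vehicle -0.47. With 1 tumor left out, *Ccl4* minus *Ccl3* in that comparison was -0.11 to 0.0457, *Ccl5* minus *Ccl4* in anti-PD1 against vehicle -0.0784 to 0.47, and r of *Cxcl10* with *Cxcr3* -0.118 to 0.135.

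Scaling moved the median of all genes in the combination against vehicle from 0.15 to -0.11 (quantile), -0.16 (centered) and 0.34 (same sum). Higher and lower calls in the combination against anti-PD1 went from 1819 and 168 to 721 and 1082, 802 and 1968, and 4208 and 36 in that order. Against α-KG they went from 4086 and 832 to 2023 and 2020, 1758 and 3127, and 6846 and 367. In the interaction they went from 1027 and 402 to 569 and 559, 389 and 633, and 2118 and 283. In α-KG against vehicle they went from 1080 and 968 to 1039 and 1644, 1055 and 1379, and 845 and 405, and in anti-PD1 against vehicle from 60 and 36 to 77 and 53, 134 and 67, and 15 and 14.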
